A study of Homo sapiens with 11 samples.

Results

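The enzymes that trim, branch, fucosylate and galactosylate N-glycans on the way to the structure that ST6GAL1 sialylates were followed here as 10 genes: MAN1A1, MAN2A1, MAN2A2, MGAT1, MGAT2, MGAT4A, MGAT4B, MGAT5, FUT8 and B4GALT1. The rule that picked them names their place in the pathway and uses no measured value, although earlier results of these data were known when it was set. They were found through their Entrez identifiers among the 28395 genes that both count tables list. The cells were human prostate cancer lines, PC3 from a bone metastasis and DU145 from a brain metastasis. Each line carried either a lentivirus for ST6GAL1 overexpression or the Lenti-ORF negative control virus, so that every library came from transduced cells. RNA-Seq counts were analysed for 3 PC3 control, 3 PC3 overexpression, 3 DU145 control and 2 DU145 overexpression libraries. The labels number the DU145 overexpression libraries as biological replicates 2 and 3. The sources used here do not state whether a population was a single clone, or what separated biological replicates, so p-values measure the spread between these libraries only.

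N-glycans are attached to proteins in the endoplasmic reticulum as a large mannose-rich precursor and are remodelled in the Golgi. Class I mannosidases such as MAN1A1 trim the mannoses, MGAT1 adds the first N-acetylglucosamine (GlcNAc), MAN2A1 or MAN2A2 then remove the last mannoses of the trimming step, and MGAT2 starts the next antenna. MGAT4A, MGAT4B and MGAT5 add further branches, FUT8 places fucose on the core, and B4GALT1 adds galactose to GlcNAc. The galactose-GlcNAc unit so formed is the acceptor on which ST6GAL1 places sialic acid. Branching by MGAT5 and core fucosylation by FUT8 are both widely studied in carcinoma cells.

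Counts on genes totalled 13194485 to 18201359 per library, and a count of 3, taken as the floor, corresponded to 0.165 to 0.227 CPM, the count scaled to the total of the library. These totals limit what can be seen of a gene at a few counts, and intervals made from counts cover counting error only. ST6GAL1 had 53, 33 and 47 counts in PC3 control libraries and 490, 575 and 516 with overexpression, and 216, 206 and 152 counts in DU145 control libraries and 5376 and 5350 with overexpression, so every library matched its label. The 5 epithelial markers summed to 864 to 1339 CPM over all libraries, and KLK2 and KLK3 of the luminal prostate were at 0 throughout. The summed epithelial markers were 1302 to 1339 CPM in DU145 control libraries and 1044 to 1176 CPM with overexpression, and the part of this in the DU145 results was not tested. The 4 leukocyte markers summed to at most 2.74 CPM and the 3 endothelial markers to at most 7.45 CPM. The 5 fibroblast markers summed to 28.6 to 35.8 CPM in PC3 and 3.09 to 7.26 CPM in DU145. In bulk RNA a change in the number of cells that express a gene cannot be told apart from a change in RNA per cell. The DU145 overexpression libraries differed most from each other, with a chi-square of 13.3 per degree of freedom against 1.39 to 5.46 for the other replicate pairs.

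Promoter sequence is shown for 4 members whose levels are described below: MAN1A1 and B4GALT1, which had the largest rises in DU145, MAN2A1, which moved in opposite directions in the lines, and MGAT5, which moved little in either. Each stretch holds 120 bases that end just before an annotated RefSeq transcription start (GRCh38.p14), with GGGCGG and its complement CCGCCC in capitals. The B4GALT1 stretch overlaps 20 bases of an exon that another transcript of the gene uses.
MAN1A1 (chr6:119349762-119349881, minus strand): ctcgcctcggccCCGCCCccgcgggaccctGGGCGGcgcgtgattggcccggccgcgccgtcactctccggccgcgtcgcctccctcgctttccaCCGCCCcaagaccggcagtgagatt
MAN2A1 (chr5:109689807-109689926, plus strand): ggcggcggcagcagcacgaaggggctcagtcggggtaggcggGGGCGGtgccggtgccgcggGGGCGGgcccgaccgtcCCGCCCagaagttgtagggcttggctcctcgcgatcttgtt
MGAT5 (chr2:134119815-134119934, plus strand): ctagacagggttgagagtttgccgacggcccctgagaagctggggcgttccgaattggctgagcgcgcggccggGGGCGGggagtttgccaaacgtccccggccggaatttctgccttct
B4GALT1 (chr9:33167337-33167456, minus strand): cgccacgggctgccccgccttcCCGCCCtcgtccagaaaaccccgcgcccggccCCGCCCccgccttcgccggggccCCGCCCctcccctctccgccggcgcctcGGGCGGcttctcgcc
In windows of 250 bases before a start, GGGCGG on either strand was found in 42.6% of 35116 annotated windows and in 13 of the 22 windows that matched 9 members. The windows of MAN1A1, MAN2A1 and B4GALT1 shown above held 4, 5 and 7 matches, and that of MGAT5 held 1. Further windows of MGAT5 and B4GALT1 held 0 and 6. Those of FUT8 held 0, 0 and 2, those of MAN2A2 held 1, 0, 0 and 2, and that of MGAT2 held 1. Windows of MGAT1 held 0, 5, 4, 2, 0 and 0, and those of MGAT4B held 0 and 3. The stretches shown were picked by the members' changes, and a link between matches and change was not tested. CCGGAA was found in 7 of the 22 member windows (14.5% of all windows) and CCAAT in 5 (32.0%), while CACGTG (6.34% of all) and TATAAA (10.7% of all) were in none. A match is a description of these letters only.

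Control cells of the lines differed in every one of the 10 enzymes. MAN1A1, MAN2A2, MGAT1, MGAT5 and FUT8 were higher in PC3, and MAN2A1, MGAT2, MGAT4A, MGAT4B and B4GALT1 were higher in DU145. The background of this comparison was high, with 86.3% of 14952 genes tested past an adjusted p of 0.05 in edgeR's quasi-likelihood test, 43.5% higher and 42.8% lower in PC3, so that 5 members higher and 5 lower is close to what most genes showed. The absolute log2 difference was over 0.58 in 8 members, 4 higher and 4 lower in PC3, with 64.9% of all genes past both thresholds (33.2% higher and 31.7% lower), and the groups did not overlap in 10 of 10 members (87.8% of all genes). MGAT4A, with 11 counts over the PC3 control libraries, is among the 10 members and entered this comparison through its DU145 counts. With at least 10 counts required in every library, 9 of 9 members passed, 5 higher and 4 lower in PC3. All genes then numbered 5052 higher and 5036 lower of 11727. Of the members 7 were also over 0.58, 4 higher and 3 lower, beside 3504 and 3356 genes. The lines were deposited in separate tables, and line cannot be told apart from anything else that differed between those experiments.

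The mannosidases divided between the lines. MAN1A1 (chr6:119177205-119349761 of hg38, minus strand), the class I mannosidase, was at 105, 95.3 and 98.3 normalised CPM in PC3 control libraries and at 11.5, 11.5 and 12.8 in DU145 control libraries. It was 8.34-fold higher in PC3 (log2 difference 3.06 ± 0.07, SE, adjusted p = 5.69e-19 in edgeR's test). MAN2A1 (chr5:109689927-109869625, plus strand), the main mannosidase II, was at 55.9, 50.6 and 53.2 CPM in PC3 and at 145, 144 and 151 CPM in DU145, a log2 difference of -1.46 ± 0.05 (adjusted p = 9.78e-16 in edgeR's test). MAN2A2 (chr15:90902218-90922584, plus strand), which encodes the related mannosidase IIx, was much closer in the lines, at 88.3 to 92.9 CPM in PC3 and 75.7 to 77.3 CPM in DU145 (log2 difference 0.25 ± 0.05). Expressed per kb of exon, MAN2A1 made up 33.6% ± 1.63 (SD, n = 3) of the sum of MAN2A1 and MAN2A2 in PC3 control cells and 62.5% ± 0.395 (n = 3) in DU145 control cells. The 3 libraries of each line did not overlap in this share, and the exact two-sided permutation p was 0.1, the smallest that 3 against 3 allows.

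Among the branching enzymes, MGAT4A showed the widest gap. MGAT4A (chr2:98619106-98731132, minus strand) had 5, 5 and 1 counts in PC3 control libraries, or 0.0652 to 0.316 CPM, around the floor of 3 counts, and 256 to 296 counts in DU145 control libraries, or 18.8 to 19.1 CPM. The fitted log2 difference of -6.36 ± 0.20 rests on 11 PC3 counts. MGAT4B (chr5:179797597-179806952, minus strand), which forms the same branch, was at 148 to 151 CPM in PC3 and at 184 to 191 CPM in DU145 (log2 difference -0.33 ± 0.06). MGAT4A thus made up 0.0839% ± 0.0514 of the sum of both genes per kb of exon in PC3 and 5.45% ± 0.135 in DU145 (n = 3 each), with an exact permutation p of 0.1, again the smallest possible. With lengths of the canonical transcripts, a choice made after the exon lengths were seen, the shares were 0.0415% and 2.77%.

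MGAT1 and MGAT5 were higher in PC3 and MGAT2 was higher in DU145. MGAT1 (chr5:180784780-180815652, minus strand), which opens the path to hybrid and complex glycans, was at 157, 162 and 150.5 CPM in PC3 and at 57.6, 57.5 and 60.4 CPM in DU145, which is 2.68-fold higher in PC3. MGAT5 (chr2:134119983-134454621, plus strand) was at 289, 297 and 300.2 CPM in PC3 and at 138, 135 and 139 CPM in DU145, or 2.16-fold higher in PC3. MGAT2 (chr14:49620799-49623481, plus strand, a single exon) was at 95.5, 91.3 and 93.4 CPM in PC3 and at 311, 318 and 326 CPM in DU145, a log2 difference of -1.77 ± 0.05. All 3 differences lay well outside the spread of the libraries, and none of the groups overlapped.

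FUT8 and B4GALT1, which act after branching has begun, differed in opposite directions. FUT8 (chr14:65410592-65744121, plus strand), the core fucosyltransferase, was at 189.6, 179.9 and 184 CPM in PC3 and at 80.7, 82.3 and 79.6 CPM in DU145, or 2.28-fold higher in PC3 (log2 difference 1.19 ± 0.06). B4GALT1 (chr9:33104082-33167356, minus strand), the main galactosyltransferase of the pathway, was at 61.6, 65.6 and 63.8 CPM in PC3 and at 352, 364 and 366 CPM in DU145 (log2 difference -2.50 ± 0.05, adjusted p = 6.51e-20 in edgeR's test). Every PC3 library stood above every DU145 library for FUT8 and below every DU145 library for B4GALT1.

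Levels can be ranked between genes only per length. Per kb of exon, PC3 control cells were led by MGAT2 (34.8 ± 0.771 CPM per kb, SD, n = 3) and MGAT5 (33.7 ± 0.644), whose libraries overlapped, then MGAT4B (27.2 ± 0.251) and FUT8 (26.5 ± 0.696), which also overlapped. MAN1A1 (19.8), MGAT1 (13.6), B4GALT1 (13.01), MAN2A2 (9.33), MAN2A1 (4.73) and MGAT4A (0.0229) followed, and of these neighbours MGAT1 and B4GALT1 overlapped. In DU145 control cells the order was MGAT2 (119 ± 2.72), B4GALT1 (73.6 ± 1.59), MGAT4B (34.2), MGAT5 (15.6), MAN2A1 (13.05), FUT8 (11.6), MAN2A2 (7.82), MGAT1 (5.09), MAN1A1 (2.38) and MGAT4A (1.97), with no overlap between neighbours. With overexpression B4GALT1 (111 CPM per kb) stood above MGAT2 (106) in DU145. The ranks depended on the length used: with canonical transcripts MGAT4B ranked 1 and MGAT2 ranked 4 in PC3 control cells. In DU145 control cells the middle ranks moved too, with MAN2A1 at 4, FUT8 at 5 and MGAT5 at 6.

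**Figure D1:**
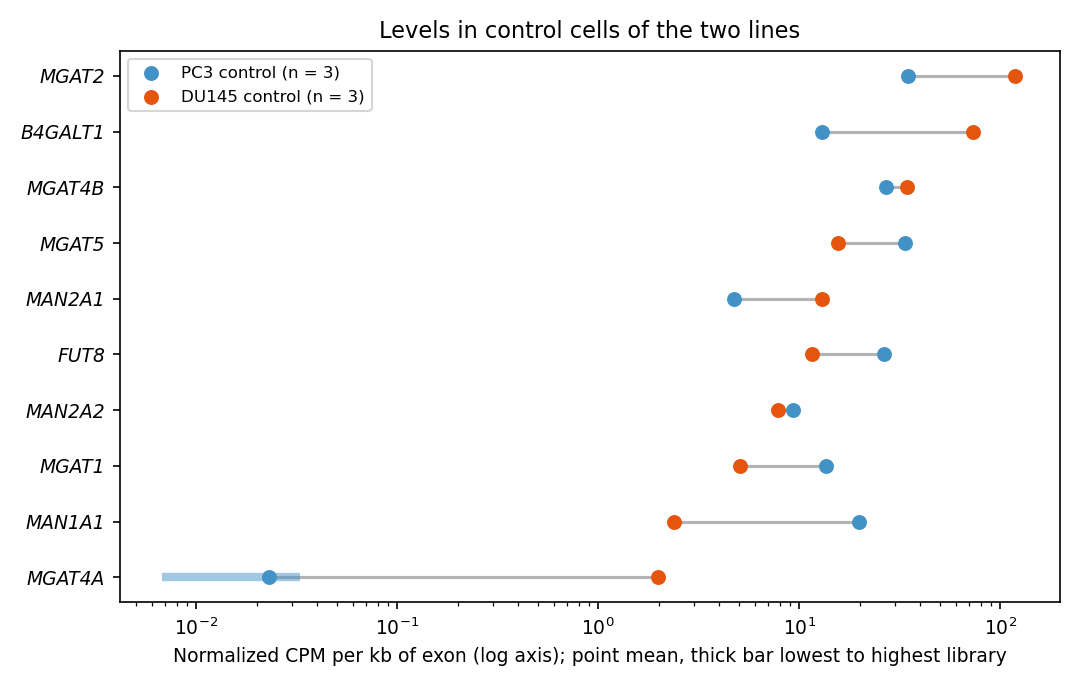
Level of the 10 enzymes in control cells, as normalised CPM per kb of exon on a log axis, with 1 point per line for the mean of 3 libraries and a thick bar from the lowest to the highest library. MGAT2 leads in both lines (34.8 in PC3 and 119 in DU145), and MGAT4A is lowest in both (0.0229 and 1.97).

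With ST6GAL1 overexpression 6 members passed the test in each line, and MAN2A1, MAN2A2 and FUT8 passed in both, in opposite directions. In DU145, MAN1A1 rose 2.14-fold and B4GALT1 rose 1.52-fold, with smaller rises of FUT8, MGAT4A and MAN2A1 and a fall of MAN2A2. In PC3, FUT8 and MAN2A1 fell to 0.808 and 0.845 of control, and MAN2A2, MGAT1, MGAT4B and MGAT5 rose by at most 0.11 on the log2 scale. In edgeR's quasi-likelihood test 6 of 9 members tested in PC3 passed an adjusted p of 0.05, against 37.3% of 13544 genes tested. Of these 4 were higher and 2 were lower, beside 18.8% and 18.5% of all genes. In DU145 6 of 10 passed, against 20.1% of 13676 genes, and 5 were higher and 1 was lower, beside 10.7% and 9.42% of all genes.

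With an absolute log2 fold change over 0.58 required as well, 2 members were called in DU145 (MAN1A1 and B4GALT1, with 8.94% of all genes called, 4.33% higher and 4.61% lower). None was called in PC3 (5.38% of all genes called, 3.61% higher and 1.76% lower), where 6 had an unadjusted p under 0.05 in edgeR and where DESeq2 and limma-voom also called 0 at both thresholds. The groups did not overlap in 6 of 9 members in PC3 (46.1% of all genes) and in 7 of 10 in DU145 (48.4% of all genes). The median log2 fold change of the members was 0.07 in PC3 and 0.20 in DU145, where the medians of all genes were both -0.002. In DU145 the count of 6 moved with the control library left out: it was 3 without control 1, 3 without control 2 and 4 without control 3. Calls over all genes moved too, from 1459 higher and 1288 lower with every library to 813 and 658 without control 1. They were 715 and 595 without control 2, and 967 and 855 without control 3. The count of 2 was 1 without control 1, where B4GALT1 was at 0.57, and 3 without overexpression 3, where FUT8 was at 0.58. In PC3 the count of 0 became 1 without control 1, 2 or 3 or overexpression 1, since MGAT4A then passed the filter on low counts and was called. It had 5, 5 and 1 counts in control libraries and 9, 14 and 13 with overexpression. It thus passed the filter only through the group where it was higher, so this call gives no separate support for a rise.

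**Figure D2:**
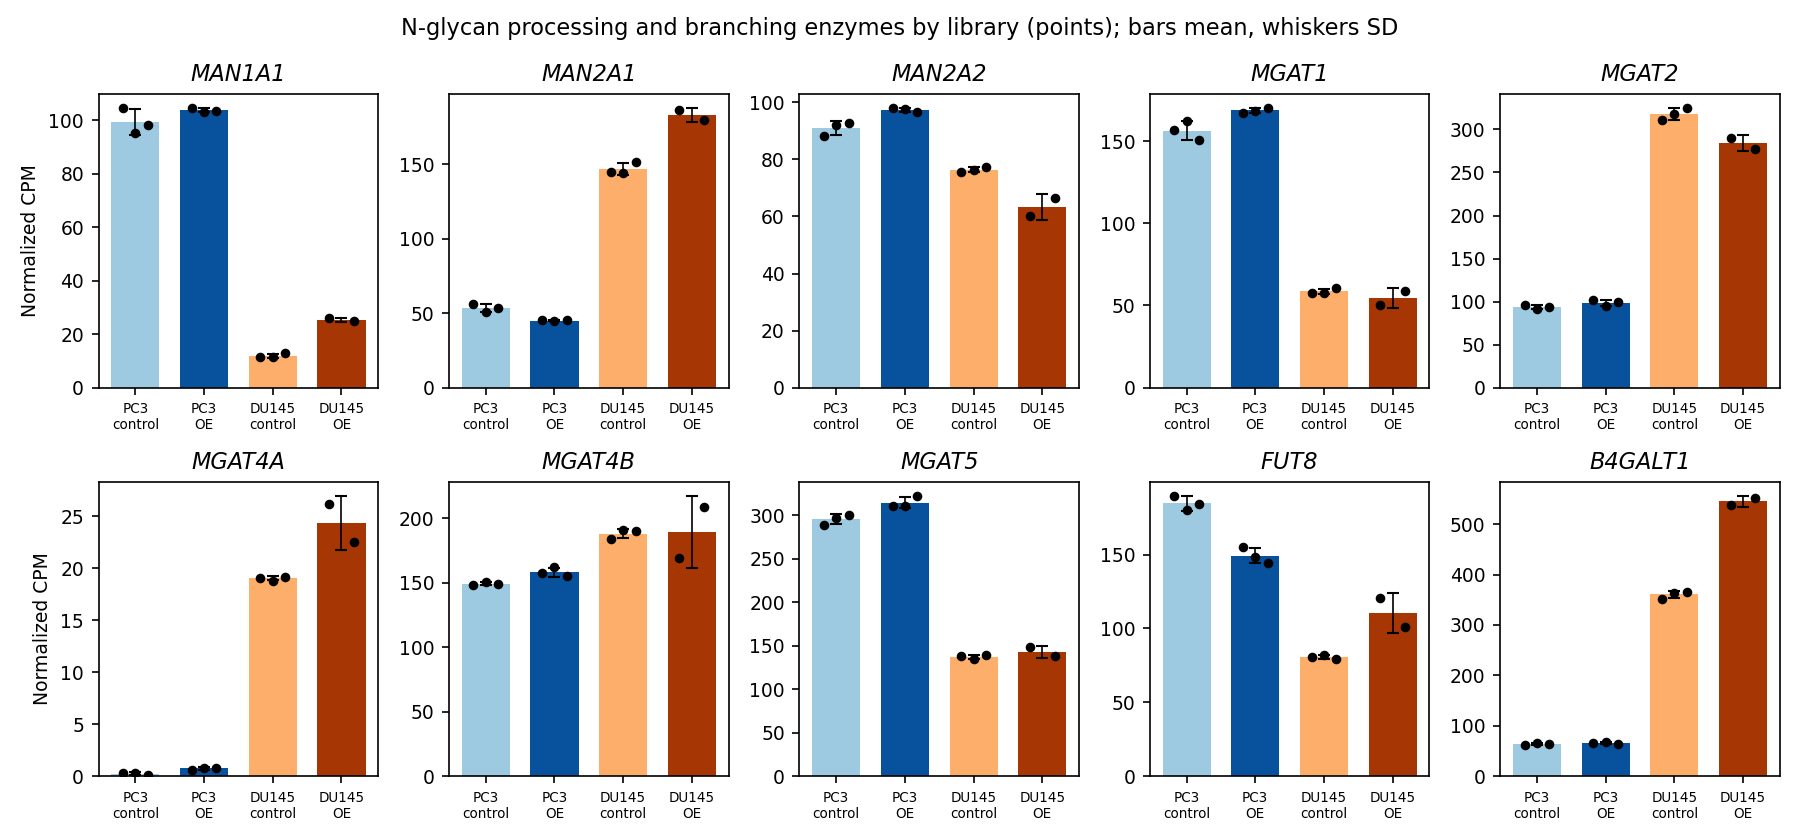
Normalised CPM of each enzyme in each of the 11 libraries (points), with bars for the group mean and whiskers for the SD, OE meaning ST6GAL1 overexpression; each panel has its own axis from 0. MAN1A1 in DU145 goes from 11.5 to 12.8 in control libraries to 24.8 and 26.0 with overexpression, and FUT8 moves down in PC3 and up in DU145.

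MAN1A1 was the member with the largest change in DU145, and MAN2A1 moved in opposite directions in the lines. MAN1A1 was at 11.5, 11.5 and 12.8 CPM in DU145 control libraries and at 26.0 and 24.8 CPM with overexpression. The groups did not overlap, and the log2 fold change was 1.10 ± 0.12 (SE, adjusted p = 1.47e-05 in edgeR's test). In PC3 MAN1A1 was at 105, 95.3 and 98.3 CPM in control libraries and at 105, 103 and 104 CPM with overexpression, where the groups overlapped (log2 fold change 0.06, 95% interval -0.01 to 0.13, adjusted p = 0.197 by edgeR). Without PC3 control 1 this became 0.10 with an edgeR adjusted p of 0.0326.

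MAN2A1 was at 55.9, 50.6 and 53.2 CPM in PC3 control libraries and at 45.5, 44.5 and 45.1 CPM with overexpression. All overexpression libraries lay below all control libraries (log2 fold change -0.24 ± 0.05, edgeR adjusted p = 8.38e-05). In DU145 it was at 145, 144 and 151 CPM in control libraries and at 187 and 179.9 CPM with overexpression, all above control (0.33 ± 0.07, edgeR adjusted p = 0.00519). This call in DU145 was lost without control 1 (edgeR adjusted p = 0.0562) or control 2 (0.0501), and offsets for GC content and length lowered the log2 fold change to 0.16 (adjusted p = 0.0286).

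MAN2A2 went the other way from MAN2A1 in both lines. In PC3 it was at 88.3, 92.0 and 92.9 CPM in control libraries and at 98.0, 97.9 and 96.7 CPM with overexpression (log2 fold change 0.10 ± 0.04, edgeR adjusted p = 0.0282). In DU145 it was at 75.7, 76.1 and 77.3 CPM in control libraries and at 60.1 and 66.7 CPM with overexpression (-0.26 ± 0.08, edgeR adjusted p = 0.0357). The groups did not overlap in either line. Both calls were weak: the PC3 call was lost in DESeq2 (0.109) and without control 1 (0.127) or any of the overexpression libraries (0.0748, 0.0861 and 0.0559 without 1, 2 and 3), and the DU145 call was lost without control 1 (0.111), 2 (0.107) or 3 (0.0915) or overexpression 2 (0.0962).

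The share of MAN2A1 in the sum of both mannosidase II genes therefore moved apart in the lines. Per kb of exon it was 33.6% ± 1.63 (SD, n = 3) in PC3 control cells and 28.6% ± 0.288 (n = 3) with overexpression, a difference of -5.03 percentage points with no overlap (exact two-sided permutation p = 0.1, the smallest that 3 against 3 allows). In DU145 it was 62.5% ± 0.395 (n = 3) and 71.5% ± 2.02 (n = 2), a difference of 8.98 percentage points with no overlap (exact permutation p = 0.2, the smallest that 3 against 2 allows). A share within a library does not depend on library scaling. It was not adjusted for GC content, which was 40.0% for MAN2A1 and 53.9% for MAN2A2. With offsets for GC content and length the DU145 log2 fold changes of these genes were 0.16 and -0.25, beside 0.33 and -0.26 without them.

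**Figure D3:**
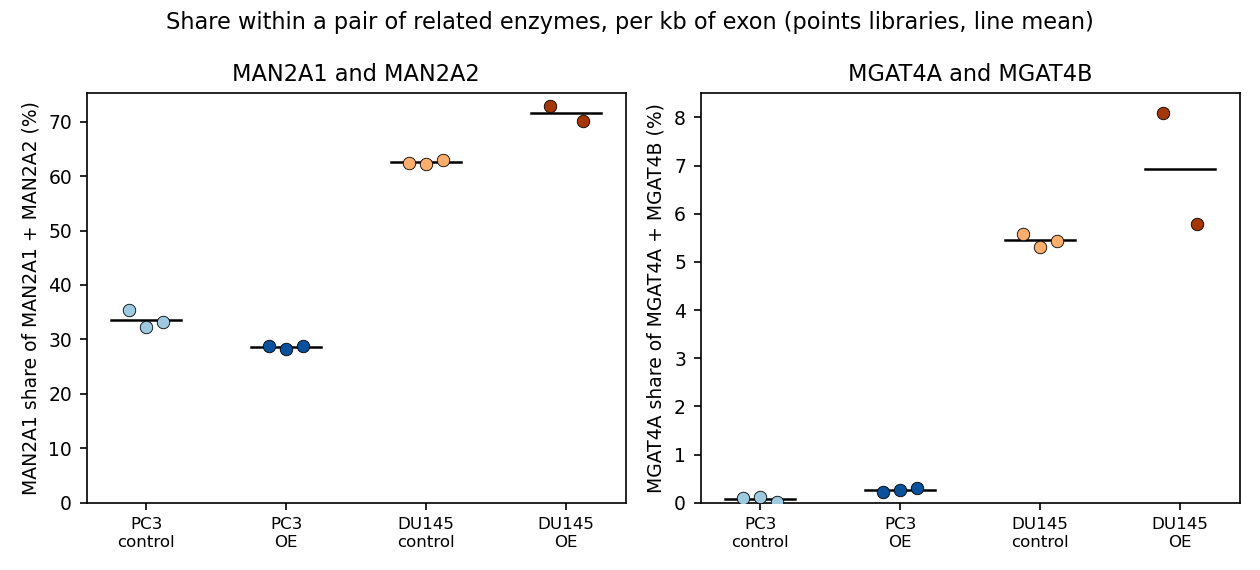
Share (%) of MAN2A1 in MAN2A1 plus MAN2A2, and of MGAT4A in MGAT4A plus MGAT4B, per kb of exon, with 1 point per library, lines for group means and OE meaning ST6GAL1 overexpression. The MAN2A1 share goes from 33.6% to 28.6% in PC3 and from 62.5% to 71.5% in DU145, and the MGAT4A share is 5.45% and 6.94% in DU145 against 0.0839% and 0.265% in PC3.

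The enzymes that build the antennae moved less. MGAT1 was at 157, 162 and 150.5 CPM in PC3 control libraries and at 167, 169 and 170.5 CPM with overexpression, a rise of 0.11 ± 0.03 on the log2 scale (edgeR adjusted p = 0.00646) with no overlap, and the call was lost without control 3 (0.0752). In DU145 it was at 57.6, 57.5 and 60.4 CPM in control libraries and at 50.0 and 58.6 CPM with overexpression, where the groups overlapped (-0.10, 95% interval -0.28 to 0.08, edgeR adjusted p = 0.481). MGAT2, which begins the second antenna, did not pass in either line. It was at 95.5, 91.3 and 93.4 CPM in PC3 control libraries and at 102, 94.5 and 99.1 CPM with overexpression, which overlapped (0.07, edgeR adjusted p = 0.121). In DU145 MGAT2 was at 311, 318 and 326 CPM in control libraries and at 291 and 278 CPM with overexpression, lower in both libraries (-0.16, 95% interval -0.30 to -0.02, edgeR adjusted p = 0.148). With offsets for GC content and length MGAT2 passed in both lines, at 0.10 in PC3 (adjusted p = 0.0223) and -0.21 in DU145 (adjusted p = 0.00971).

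MGAT5, whose branch allows tetra-antennary glycans, was at 289, 297 and 300.2 CPM in PC3 control libraries and at 311, 310.2 and 322 CPM with overexpression. The groups did not overlap and the rise was 0.09 ± 0.03 on the log2 scale (edgeR adjusted p = 0.00743), lost without overexpression 3 (0.0790). In DU145 MGAT5 was at 138, 135 and 139 CPM in control libraries and at 148 and 138 CPM with overexpression, where the groups overlapped (0.07, 95% interval -0.08 to 0.21, edgeR adjusted p = 0.557). Its sign in DU145 turned with GC and length offsets (-0.03, adjusted p = 0.713).

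MGAT4B and MGAT4A add the same branch, and they were at very different levels. MGAT4B was at 148, 151 and 149 CPM in PC3 control libraries and at 157, 162 and 155 CPM with overexpression, which did not overlap (0.08 ± 0.03, edgeR adjusted p = 0.0343). That call was lost in DESeq2 (0.0998), with GC and length offsets (0.238) and without control 1 (0.0626), control 3 (0.0911), overexpression 1 (0.0647) or overexpression 2 (0.193). In DU145 MGAT4B was at 184, 191 and 189.8 CPM in control libraries and at 169 and 209 CPM with overexpression, on either side of the control range. Its log2 fold change there was 0.01 (95% interval -0.16 to 0.19, edgeR adjusted p = 0.924), -0.14 without overexpression 3 and 0.21 with GC and length offsets (adjusted p = 0.00407).

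MGAT4A was at 19.1, 18.8 and 19.1 CPM in DU145 control libraries and at 26.2 and 22.5 CPM with overexpression, both above the control range. The log2 fold change was 0.36 ± 0.11 (edgeR adjusted p = 0.0354). The call was lost in DESeq2 (0.0856), with GC and length offsets (0.20, adjusted p = 0.0813), and without control 1 (0.142), control 2 (0.158), control 3 (0.106) or overexpression 2 (0.166). In PC3 MGAT4A had 5, 5 and 1 counts in control libraries and 9, 14 and 13 counts with overexpression, too few for the filter on low counts, so it was not tested there. The summed counts of 11 and 36 give a ratio of 3.27 (95% interval 1.63 to 7.12, exact, counting error only). Its share of MGAT4A plus MGAT4B per kb of exon was 0.0839% ± 0.0514 and 0.265% ± 0.0403 in PC3 (n = 3 each, exact permutation p = 0.1, the smallest possible) and 5.45% ± 0.135 (n = 3) and 6.94% ± 1.63 (n = 2) in DU145 (exact permutation p = 0.2, the smallest possible).

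FUT8 fell in PC3 and rose in DU145. In PC3 it was at 189.6, 179.9 and 184 CPM in control libraries and at 155, 148 and 145 CPM with overexpression, all below control (log2 fold change -0.31 ± 0.03, edgeR adjusted p = 2.84e-10). In DU145 it was at 80.7, 82.3 and 79.6 CPM in control libraries and at 120.3 and 101 CPM with overexpression, all above control (0.46 ± 0.09, edgeR adjusted p = 0.00178). Both calls held without each library in turn, with a range of -0.33 to -0.29 in PC3 and of 0.32 to 0.58 in DU145. The antisense gene FUT8-AS1 overlaps 824 exonic bases of FUT8 on the opposite strand, and whether counting used strand is not given in the sources used here. FUT8-AS1 was at 12.1 ± 1.02 CPM in PC3 control libraries and 7.64 ± 0.810 CPM with overexpression (SD, n = 3 each), and at 0.965 and 1.01 CPM in DU145, so its level was small beside that of FUT8.

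B4GALT1 changed in DU145 and was nearly level in PC3. In DU145 it was at 352, 364 and 366 CPM in control libraries and at 538 and 553 CPM with overexpression, with no overlap (log2 fold change 0.60 ± 0.07, edgeR adjusted p = 4.5e-05). The value stayed between 0.57 and 0.61 without each library in turn, and fell under 0.58 without control 1. In PC3 it was at 61.6, 65.6 and 63.8 CPM in control libraries and at 65.9, 67.3 and 64.4 CPM with overexpression, which overlapped (0.05, 95% interval -0.03 to 0.13, edgeR adjusted p = 0.375). B4GALT1-AS1, which overlaps 99 exonic bases, had 46 counts over all libraries against 40523 for B4GALT1.

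**Figure D4:**
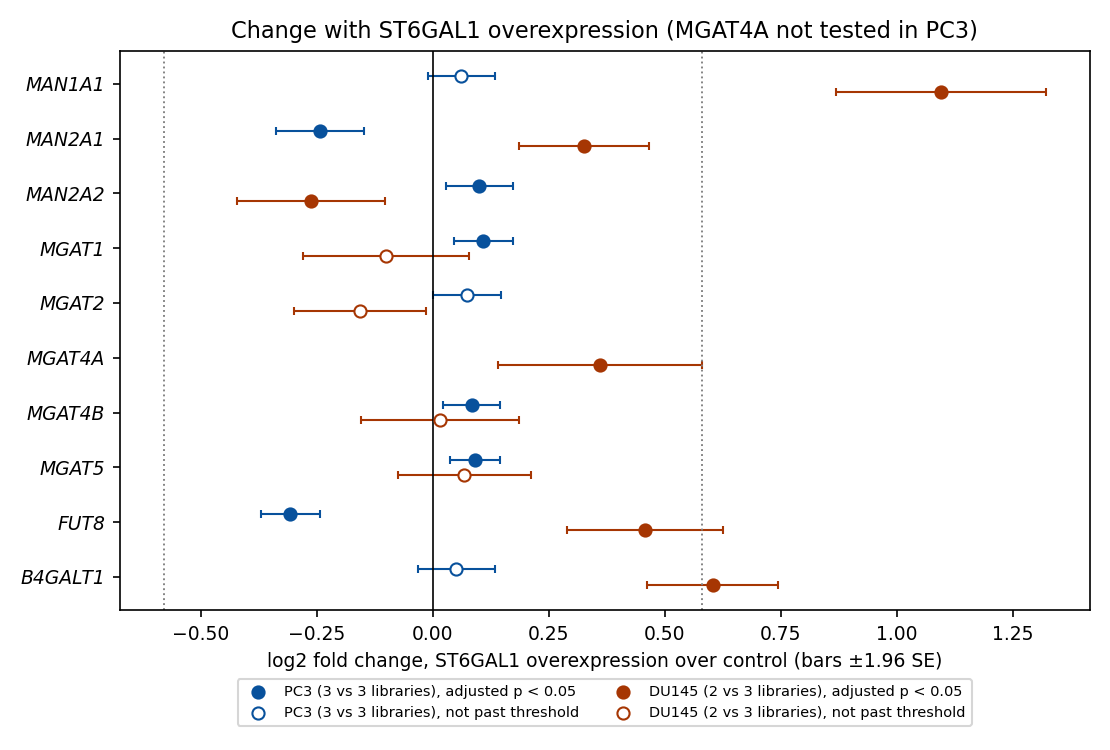
Log2 fold change with ST6GAL1 overexpression of the 10 enzymes in PC3 (blue) and DU145 (brown), with 95% intervals, filled points where the adjusted p is under 0.05 and dotted lines at 0.58 in either direction. MAN1A1 (1.10) and B4GALT1 (0.60) pass the dotted line in DU145, no enzyme does in PC3, and the filled points of MAN2A1, MAN2A2 and FUT8 lie on opposite sides of 0 in the lines.

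The difference between the lines was tested directly over all 11 libraries. Of the 10 members 7 had changes that differed between DU145 and PC3 (adjusted p under 0.05 in edgeR's quasi-likelihood test), against 19.7% of 14952 genes. One of the 7, MGAT4A, was too low to be tested in PC3 and entered this fit through its DU145 counts. With at least 10 counts required in every library, 6 of 9 members passed, 4 higher and 2 lower in DU145, beside 1527 and 1207 of 11727 genes. Among the 7 of 10 members, the value was higher in DU145 for 4 and lower for 3, beside 10.4% and 9.36% of all genes. Subtracting the PC3 change from the DU145 change gave 1.03 ± 0.10 (SE, log2) for MAN1A1, 0.76 ± 0.09 for FUT8, 0.56 ± 0.08 for MAN2A1 and 0.55 ± 0.07 for B4GALT1, with adjusted p-values of 2.52e-07, 2.7e-06, 2.29e-05 and 7.56e-06. It was -0.37 ± 0.08 for MAN2A2 (adjusted p = 0.00214), -0.24 ± 0.07 for MGAT2 (0.0191) and -1.33 ± 0.44 for MGAT4A (0.037). The first 5 of these calls held without each of the 11 libraries in turn. MGAT2 lost its call without PC3 control 2 (0.0526), PC3 overexpression 1 (0.0590) or 3 (0.0520). MGAT4A, whose value rests on the few PC3 counts, lost its call in DESeq2 (0.0587), with the replicate block (0.0632), and without PC3 control 1 (0.0592), PC3 control 3 (-0.94, adjusted p = 0.171) or PC3 overexpression 2 (0.0863) or 3 (0.0906). MGAT1, MGAT4B and MGAT5 did not pass (adjusted p = 0.0869, 0.625 and 0.833), with 95% intervals of -0.38 to -0.05, -0.25 to 0.10 and -0.16 to 0.10. MGAT1 passed without DU145 overexpression 3 (-0.34, adjusted p = 0.00123), as did MGAT4B (-0.24, adjusted p = 0.00511). MGAT4B passed in the opposite direction with GC and length offsets (0.16, adjusted p = 0.0326).

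The members differ in base composition, and in DU145 base composition moved with the fold change across all genes. GC content, taken from the longest annotated transcript, was 38.5% for MGAT4A, 40.0% for MAN2A1, 40.8% for FUT8 and 42.7% for MAN1A1. These were all called higher in DU145, as was B4GALT1, for which GC content was 50.7%. GC content was 53.9% for MAN2A2, called lower in DU145, 54.5% for MGAT1 and 59.7% for MGAT4B, with 47.5% for MGAT2 and 48.4% for MGAT5. In classes chosen after these values were seen, the median log2 fold change in DU145 was 0.07 over 5229 genes under 45% GC and -0.15 over 5002 genes over 52% GC. In PC3 the same medians were -0.02 over 5289 genes and 0.03 over 4868 genes. With offsets for GC content and length in each library, DU145 log2 fold changes were 0.99 for MAN1A1, 0.59 for B4GALT1, 0.32 for FUT8 and -0.25 for MAN2A2, each with an edgeR adjusted p under 0.05. MAN2A1 fell to 0.16 and kept its call (adjusted p = 0.0286), MGAT4A fell to 0.20 and lost it (adjusted p = 0.0813), and MGAT2 (-0.21, adjusted p = 0.00971) and MGAT4B (0.21, adjusted p = 0.00407) gained one.

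Genes beside the members on the chromosome give a further frame. FUT8 and MGAT2 lie on chromosome 14, and MGAT1 and MGAT4B lie 977914 bases apart on chromosome 5. In DU145 the 50 nearest tested genes around FUT8 stood at a median of 0.22 on the log2 scale, and 40 of 50 were above 0, beside 0.46 for FUT8. Around MAN1A1 the median was 0.11 beside 1.10, around MAN2A1 0.13 beside 0.33, and around B4GALT1 0.05 beside 0.60. Around MGAT2 it was 0.12, with 36 of 50 above 0, while MGAT2 itself was at -0.16. The median was -0.19 around MGAT4B and -0.13 around MGAT1, whose neighbours are partly shared. In PC3 the neighbours of FUT8 had a median of -0.06 beside -0.31, and those of MAN2A1 had a median of -0.005 beside -0.24. These values are descriptions, and their part in the members' changes was not tested.

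Other genes of the N-glycan pathway, 82 in 6 lists, passed the test in smaller shares than all genes did in either line. In PC3 21 of 74 tested passed (28.4%), 14 higher and 7 lower, and in DU145 8 of 73 passed, 4 higher and 4 lower, where the shares of all genes were 37.3% and 20.1%. At both thresholds 1 was called in PC3 and 3 in DU145. The median log2 fold change was 0.02 in both lines. The counts past the adjusted p in DU145 moved with the libraries, to 4 without control 1 or 2 and 7 without control 3. With GC and length offsets 18 passed. Calls over all genes moved too, from 1459 higher and 1288 lower of 13676 to 1901 and 2473 with these offsets. They were 813 and 658 without control 1, 715 and 595 without control 2, and 967 and 855 without control 3. The 3 called at both thresholds became 0 without control 2 and 1 without control 3. All genes called at both thresholds numbered 592 higher and 630 lower with every library, 398 and 432 without control 2, and 485 and 484 without control 3.

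The call at both thresholds in PC3 was MGAT5B, a brain-enriched relative of MGAT5. It was at 20.4, 22.2 and 22.2 CPM in PC3 control libraries and at 12.2, 12.4 and 10.4 CPM with overexpression, all below control (-0.89 ± 0.08, edgeR adjusted p = 6.51e-12). In DU145 MGAT5B was at 36.01, 36.5 and 35.0 CPM in control libraries and at 22.05 and 37.2 CPM with overexpression, so that the libraries fell on either side of control (-0.27, edgeR adjusted p = 0.43). Without DU145 overexpression 3 its change there was -0.69 (adjusted p = 6.96e-05), and without DU145 overexpression 2 it was 0.05. The other 3 genes of that list, MGAT3, MGAT4C and MGAT4D, were too low to be tested in either line.

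Of the 10 genes for other galactosylation and lactosamine extension 9 were tested. Of these, 11.1% passed in PC3 and 33.3% in DU145, beside 37.3% and 20.1% of all genes. In DU145 B4GALT5, a galactosyltransferase that also makes lactosylceramide, was at 159, 150.2 and 145 CPM in control libraries and at 231 and 227 CPM with overexpression (0.60 ± 0.07, edgeR adjusted p = 5.02e-05). B3GNT3, which extends lactosamine chains, was at 5.02, 4.82 and 5.01 CPM and at 3.29 and 3.18 CPM (-0.61 ± 0.18, edgeR adjusted p = 0.0281), a call lost in DESeq2 (0.146) and without control 1 (0.0934), 2 (0.0848) or 3 (0.0756) or overexpression 3 (0.0544). Neither gene's groups overlapped. In PC3 the only member of the list to pass was B4GALT3, another galactosyltransferase of the B4GALT1 family, at 0.10 ± 0.04 (edgeR adjusted p = 0.0264), lost in DESeq2 (0.102) and without control 1 (0.0505) or 3 (0.0980) or overexpression 1 (0.0813) or 3 (0.137).

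Among 18 genes of nucleotide sugar supply and Golgi transport, of which 17 were tested, 2 rose and 4 fell in PC3 and 1 rose in DU145. These were 35.3% and 5.88% of those tested, both below the shares of all genes (37.3% and 20.1%). UAP1, which makes the UDP-GlcNAc used by the MGAT enzymes, fell from 131, 118 and 128 CPM to 103, 111 and 103 CPM in PC3 (-0.25 ± 0.04, edgeR adjusted p = 1.08e-06). GFPT2, an isoform of the enzyme that commits fructose-6-phosphate to that supply, rose from 34.5, 34.3 and 36.6 CPM to 51.1 and 55.9 CPM in DU145 (0.61 ± 0.09, edgeR adjusted p = 0.000272). The groups did not overlap in either case.

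In the 29 genes of precursor assembly and transfer, 5 rose and 1 fell in PC3 and 2 fell in DU145. These were 20.7% and 6.9% of the list, both below the shares of all genes (37.3% and 20.1%). MAGT1 and TUSC3 are alternative subunits of the oligosaccharyltransferase that moves the precursor to protein. MAGT1 rose in PC3 from 204, 201 and 199.9 CPM to 247, 248 and 253 CPM (0.31 ± 0.03, edgeR adjusted p = 1e-11), and TUSC3 fell in DU145 from 198, 199 and 186 CPM to 158 and 142 CPM (-0.37 ± 0.08, edgeR adjusted p = 0.00415). Of 12 glucosidases and other mannosidases 4 rose in PC3, led by EDEM3, a mannosidase-like protein of endoplasmic reticulum quality control (0.39 ± 0.05, edgeR adjusted p = 4.75e-09). In DU145 2 of these 12 rose, with UGGT2, a folding sensor that adds back glucose, at 0.48 ± 0.10 (edgeR adjusted p = 0.00315). The shares of these 12 that passed, 33.3% in PC3 and 16.7% in DU145, were also below those of all genes.

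Of the 9 genes listed for terminal capping of antennae, 6 were tested in PC3 and 5 in DU145. The share that passed in PC3 was 50.0% of those tested, beside 37.3% of all genes. In PC3 2 rose and 1 fell, among them ST3GAL4, which places sialic acid on the same galactose in another linkage, from 126, 150.2 and 140.0 CPM to 165, 175 and 175 CPM (0.31 ± 0.05, edgeR adjusted p = 0.000143). In DU145 none passed in edgeR's test, beside 20.1% of all genes, and 0 had an unadjusted p under 0.05. ST3GAL6 had the smallest adjusted p there (0.34, adjusted p = 0.284) at 2.44 to 3.44 CPM in control libraries and 4.06 and 3.52 CPM with overexpression.

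**Figure D5:**
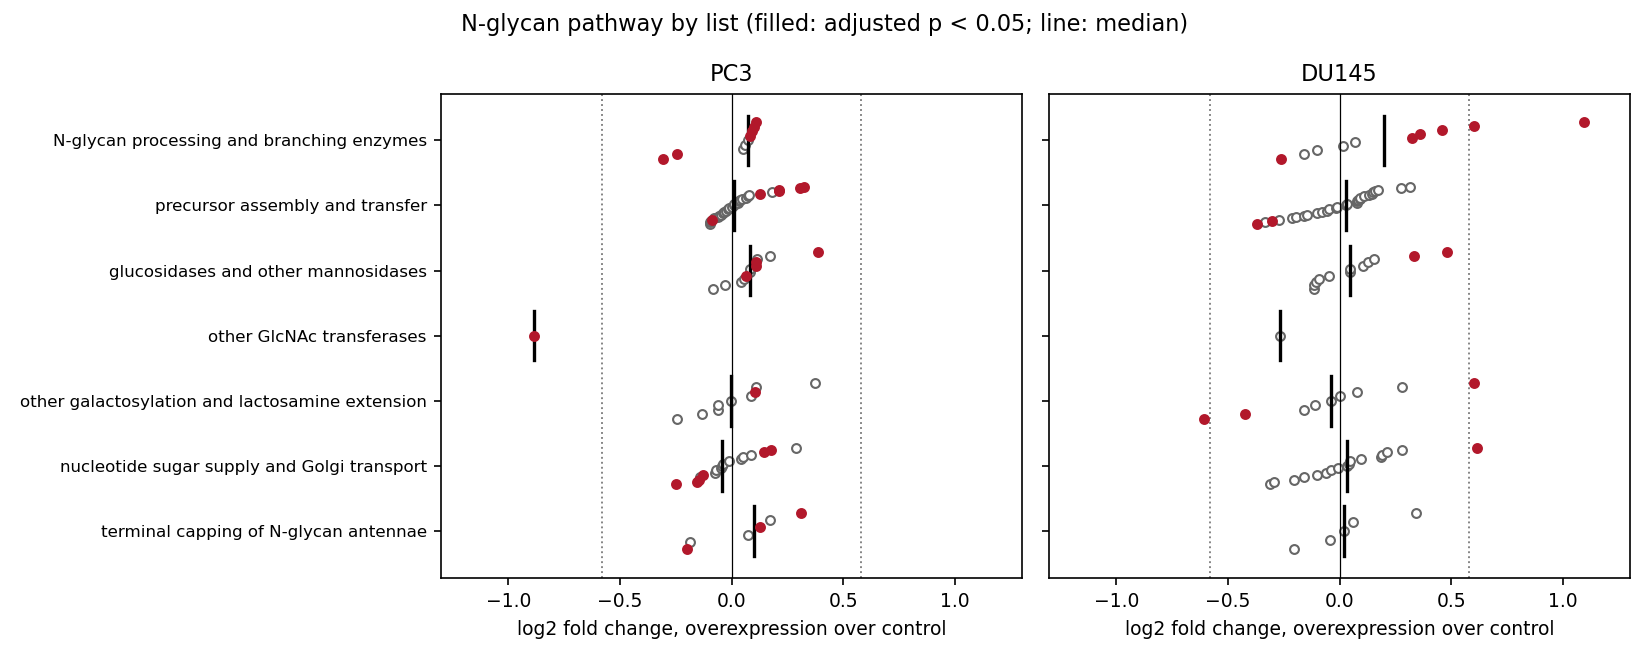
Log2 fold change with ST6GAL1 overexpression of every tested gene in the 10 enzymes and the 6 other N-glycan lists, in PC3 and DU145, with filled points for an adjusted p under 0.05, black lines for list medians and dotted lines at 0.58 in either direction. Medians of the 10 enzymes are 0.07 in PC3 and 0.20 in DU145, and that of the single tested gene among other GlcNAc transferases, MGAT5B, is -0.89 in PC3.

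Overlapping annotation limits some of these values. The exons of MGAT4B overlap those of SQSTM1 by 105 bases on the opposite strand, and SQSTM1 was at 540 CPM in DU145 control libraries and 441 CPM with overexpression. MGAT2 lies in the exons of an unnamed antisense RNA over 92.0% of its length, and MAN2A2 shares 8.14% of its exonic bases with another. If reads were counted without strand, such pairs could not be told apart.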

How the data were processed

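RNA-Seq counts of 11 libraries of PC3 and DU145 cells were used. According to the labels and methods, polyadenylated RNA was prepared with a stranded kit, reads were trimmed with Cutadapt, mapped to hg38 with HISAT2 and counted with featureCounts. The authors deposited whole-number counts per Entrez gene without normalisation, in 1 table per line, and 97.7% of identifiers were matched to a symbol. The annotation and strand setting used for counting are not given in the sources used here. DU145 overexpression replicate 1 was not analysed here.

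The members and all lists were chosen with earlier results of these data known. Members, overlaps, lengths and GC content came from GENCODE v44, and promoters from RefSeq (GRCh38.p14). Counts were tested with edgeR 4.0.16 in R 4.3.3 (filterByExpr, TMM factors, robust quasi-likelihood F test, Benjamini-Hochberg adjustment over all genes tested), within each line, and over all libraries for differences between lines. Biological coefficients of variation were 0.0226 (PC3), 0.0817 (DU145) and 0.0543 (all libraries). Totals were 13194485 to 18201359 counts. Plotted and printed CPM were scaled by TMM over all libraries. SEs are log2 fold changes divided by the root of F, and intervals are 1.96 SEs on either side. Shares of paralogs were tested with exact two-sided permutation tests (scipy 1.17.1). All replicate pairs differed by more than sampling noise.

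All members were named. Of each other list and line, the genes past an adjusted p of 0.05 and an absolute log2 fold change of 0.58 were named, at most 4, or else the gene with the smallest adjusted p. Alternatives were RLE factors, no filter, at least 10 counts in every library, DESeq2 1.42.0, limma-voom (limma 3.58.1), GC and length offsets, a replicate block and each library left out in turn. Canonical transcript lengths and GC classes were added after the data were seen. On simulated counts with 200 genes changed, 98% were recovered in PC3 with 11 false calls among 13560 genes, 96% in DU145 with 8 among 13592, 90.5% for the difference between changes with 10 among 14510, and 98% for the difference between lines with 10 among 14490.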

Additional observations from a re-analysis of the deposited data

Results flagged for a closer look

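The change with ST6GAL1 overexpression differed between DU145 and PC3, by the test of the difference itself in edgeR over all 11 libraries, for 7 of the 10 enzymes (19.7% of all genes). With at least 10 counts required in every library it differed for 6 of 9, beside 1527 genes higher and 1207 lower of 11727. Subtracting the PC3 change from the DU145 change gave 1.03 (log2) for MAN1A1, 0.56 for MAN2A1, -0.37 for MAN2A2, -0.24 for MGAT2, -1.33 for MGAT4A, 0.76 for FUT8 and 0.55 for B4GALT1. MGAT4A, too low to be tested in PC3, entered this test through its DU145 counts, and its call was lost in DESeq2 (adjusted p = 0.0587), with the replicate block (0.0632) and in 4 of the fits that left out a library. MAN2A1 and FUT8 passed as falls in PC3 and as rises in DU145, and MAN2A2 passed as a rise in PC3 and as a fall in DU145. Of the other pathway genes 11 of 74 tested passed the same test (14.9%), a smaller share than the 19.7% of all genes, and 6 of the 11 are named above for their change within a line. They were the oligosaccharyltransferase subunits MAGT1 (-0.21, adjusted p = 0.038) and TUSC3 (-0.59, adjusted p = 9.91e-05), EDEM3 (-0.29, adjusted p = 0.0333), B4GALT5 (0.66, adjusted p = 9.21e-07), UAP1 (0.52, adjusted p = 0.00262) and GFPT2 (0.76, adjusted p = 8.26e-05). TUSC3 passed in both lines, at 0.21 in PC3 and -0.37 in DU145. The call of MAGT1 was lost in 11 of 18 alternatives, among them DESeq2 (adjusted p = 0.0582), no filter (0.0593) and each PC3 library left out in turn, and that of EDEM3 in 8 of 18, among them DESeq2 (0.0574) and the replicate block (0.0533).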

How the results depend on the processing

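Of 1005 values of single genes under an alternative, 901 kept their direction and their side of the threshold, 69 lost the threshold, 24 gained it and 11 reversed. Members called at both thresholds in PC3 numbered 6 with the adjusted p alone, 1 with no filter and 0 to 1 with a library left out. In DU145 they numbered 6 with the adjusted p alone, 1 with the replicate block and GC and length offsets, and 1 to 3 with a library left out. Members at the adjusted p alone numbered 3 to 6 in DU145 with a library left out. Other pathway genes at both thresholds numbered 21 in PC3 with the adjusted p alone, and in DU145 8 with the adjusted p alone, 1 with GC and length offsets, 1 with these and the block, and 0 to 2 with a control library left out. All genes called at both thresholds in DU145 numbered 592 higher and 630 lower in the main fit, 589 and 628 with these offsets, and 576 and 630 with the block as well. They were 474 and 466 without control 1, 398 and 432 without control 2, and 485 and 484 without control 3. At the adjusted p alone they numbered 5 in DU145 at a threshold of 0.01, 18 with GC and length offsets, 13 with the replicate block, 19 with both, and 4 to 22 with a library left out. The MGAT4A share differed by 0.316 percentage points in PC3 and -9.03 between lines without lengths, and by 0.0895 and -2.73 with canonical lengths. Reversed values were those of MGAT4B in DU145 (-0.0084 with the block, -0.14 to 0.15 with a library left out, of which -0.02 was without control 1), its difference between lines (0.16 with GC and length offsets, -0.24 to 0.060 with a library left out), MGAT5 in DU145 (-0.028 with GC and length offsets, -0.038 with the block as well), its difference between lines (-0.088 to 0.012 with a library left out), and MGAT5B in DU145 (0.049 with GC and length offsets, 0.10 with the block as well, -0.69 to 0.045 with a library left out). The cause was not tested.

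Replicate numbers are shared by the labels, but same-numbered PC3 libraries correlated at only 0.0475, 0.125 and 0.0337 in their deviations from group means, with 5 of 6 libraries correlating best with their own number, and DU145 has 2 such pairs (0.213 and 0.516), so the numbers were not taken as pairing. With the replicate block 6 members passed in PC3, 6 in DU145 and 7 for the difference between lines, the same counts as without it, but in the last MGAT1 was gained (-0.23, edgeR adjusted p = 0.0485) and MGAT4A lost (adjusted p = 0.0632). Calls over all genes moved with the block, from 2548 higher and 2508 lower to 2585 and 2570 in PC3. They moved from 1459 and 1288 to 1652 and 2017 in DU145, and from 1549 and 1400 to 1746 and 1805 for the difference between lines.

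With 1 DU145 overexpression library left, its spread was assumed to be that of the other libraries. Depth limits MGAT4A in PC3, and 2 DU145 overexpression libraries that differ from each other limit the DU145 values.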
